A study of Mus musculus with 6 samples.

Results

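The Hox genes of the 4 mouse clusters, Hoxa to Hoxd, were described in the accessible chromatin of Beko cells, a leukemic mouse progenitor T-cell line with constitutively active Notch signaling. Members were all protein-coding genes of the GENCODE vM1 annotation with the symbol Hoxa, Hoxb, Hoxc or Hoxd and a number. This rule gave 39 genes of 22238 protein-coding genes, 11 in Hoxa, 10 in Hoxb, 9 in Hoxc and 9 in Hoxd. With them went the ATAC-Seq peaks within each cluster and the 50 kb on either side, 16 of 32527 peaks in all, 12 of which lay within a cluster.

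ATAC-Seq marks open chromatin through a transposase that inserts adapters where DNA is accessible. Of the 6 libraries, 3 came from cells given the solvent DMSO and 3 from cells given DAPT, a γ-secretase inhibitor (GSI), each for 24 h. DAPT blocks the release of the Notch intracellular domain. The labels give 10 mg/ml as the DAPT dose, whereas the methods of the study give the same figure in μg/ml. Both groups were cultures of this cell line, and nothing in the labels says whether the 3 libraries of a group came from separate cultures. The deposited peaks are 1 list for all 6 libraries with coordinates only, on the mouse build mm9. No value per library, no replicate error and no GSI against DMSO comparison could be had from it, and read depth was not used here. Errors below are 95% counting intervals (Wilson for shares, exact Poisson for densities). They cover counting error only and are too narrow as far as neighbouring genes share a peak.

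Hox genes encode homeodomain transcription factors that give cells their position along the body axis. They stand in clusters in the order in which they are used from head to tail, and genes of the same rank in different clusters are paralogs that share a group number. In blood, Hoxa genes and some Hoxb genes are known for their activity in stem and progenitor cells and in leukemia, while most posterior genes act in limbs, kidney, gut and the urogenital tract. Polycomb complexes keep silent Hox genes compact, and trithorax complexes keep active ones in use.

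A gene is called open below when a peak lay within 1 kb of any of its annotated transcript starts, and closed otherwise. A closed start is a start without a listed peak, which is not a measurement of absent accessibility. The labelled cell type was checked at marker genes. Of 7 T-lineage genes matched by symbol 6 were open (48.7 to 97.4%), among them Cd3e, Lck, Gata3, Tcf7 and Notch1, with Il2ra the exception. Of 7 genes of other lineages (Pax5, Ebf1, Mpo, Alb, Myod1, Neurod1 and Cdh5) 0 were open (up to 35.4%). Over all coding genes the share was 47.1%. The lists also differed in CpG-rich starts, as defined below, which 4 T-lineage genes and 2 of the others had. Over all coding genes with such a start 75.7% were open.

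Only 4 of the 39 Hox genes were open, namely Hoxa7, Hoxa13, Hoxc6 and Hoxd8. Hoxa had 2 open genes, Hoxc and Hoxd had 1 each, and all 10 Hoxb genes were closed. The peaks at the open genes are shown first, because the counts of open genes rest on them.

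Each stretch is given on the strand on which its gene is read, in mm9, leaving out annotated untranslated regions. Capitals mark GGGCGG or its reverse complement, the core of the site bound by SP family factors. In the Hoxa13, Hoxc6 and Hoxa7 stretches the bases lie upstream of a start or in an intron. The Hoxd8 stretch begins directly after the annotated 5′ untranslated region, since the part of the peak before it is mostly untranslated sequence.
Hoxa7, upstream of the start, chr6:52171854-52171964, minus strand: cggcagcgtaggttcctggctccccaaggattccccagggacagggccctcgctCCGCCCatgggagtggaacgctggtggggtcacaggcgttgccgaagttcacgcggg
Hoxa13, upstream of the start, chr6:52210875-52211074, minus strand: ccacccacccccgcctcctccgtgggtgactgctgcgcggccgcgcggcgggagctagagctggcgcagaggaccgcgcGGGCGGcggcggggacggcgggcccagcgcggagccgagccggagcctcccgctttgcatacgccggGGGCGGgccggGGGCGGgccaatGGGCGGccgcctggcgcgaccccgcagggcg
Hoxc6, intron, chr15:102829780-102829979, plus strand: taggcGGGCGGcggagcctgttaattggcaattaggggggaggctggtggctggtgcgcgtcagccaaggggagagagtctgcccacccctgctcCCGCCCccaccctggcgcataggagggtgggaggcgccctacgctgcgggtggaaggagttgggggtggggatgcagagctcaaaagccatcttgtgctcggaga
Hoxd8, coding part, chr2:74543605-74543784, plus strand: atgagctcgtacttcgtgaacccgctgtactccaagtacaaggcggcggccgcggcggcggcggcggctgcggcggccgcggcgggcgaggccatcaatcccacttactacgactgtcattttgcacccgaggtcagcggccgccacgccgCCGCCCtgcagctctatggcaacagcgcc

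The Hoxa7 peak spanned chr6:52171670-52171964, 295 bp in width, and held the outermost of 5 annotated Hoxa7 starts, at position 52171853. Hoxa7 is a mid-cluster gene that patterns the trunk skeleton. The RefSeq promoter of Hoxa7, found in mm9 by an exact sequence match, starts elsewhere, at position 52168572, and lay 3.10 kb from the peak. The Hoxa7 call therefore rested on the GENCODE start.

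The Hoxa13 peak, at chr6:52210647-52211165, was 519 bp wide and covered both the outermost GENCODE start and the RefSeq start, which coincided at position 52210874. Hoxa13 is the last gene of its cluster and is needed in digits and the urogenital tract. The GC content of the peak was 74.2% and its observed to expected CpG ratio was 0.930. GGGCGG occurred 7 times in it on either strand. The peak straddled the 5′ edge of the cluster.

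The Hoxc6 peak was the sole peak of the Hoxc cluster and of the 50 kb on each of its sides. It spanned chr15:102829240-102830521, 1282 bp in width, and lay in an intron of Hoxc6, between annotated starts, 439 bp upstream of the nearest of 3 starts. Hoxc6 patterns thoracic structures and the mammary gland. No Hoxc6 start lay inside the peak, and Hoxc6 was the single open gene without a CpG-rich start. A start was CpG-rich where the 500 bp on either side had at least 50% GC and a CpG count of at least 0.6 times that expected from its C and G content.

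The Hoxd8 peak, at chr2:74542710-74544110, was the widest of the clusters at 1401 bp and the richest in CpG, with a GC content of 74.5% and an observed to expected CpG ratio of 1.01. It held 11 copies of GGGCGG. Hoxd8 stands near the middle of Hoxd and acts in the trunk. Its outermost start and its RefSeq start, both at position 74542672, lay 38 bp outside the peak, and another annotated start, at position 74542962, lay inside it.

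**Figure D1:**
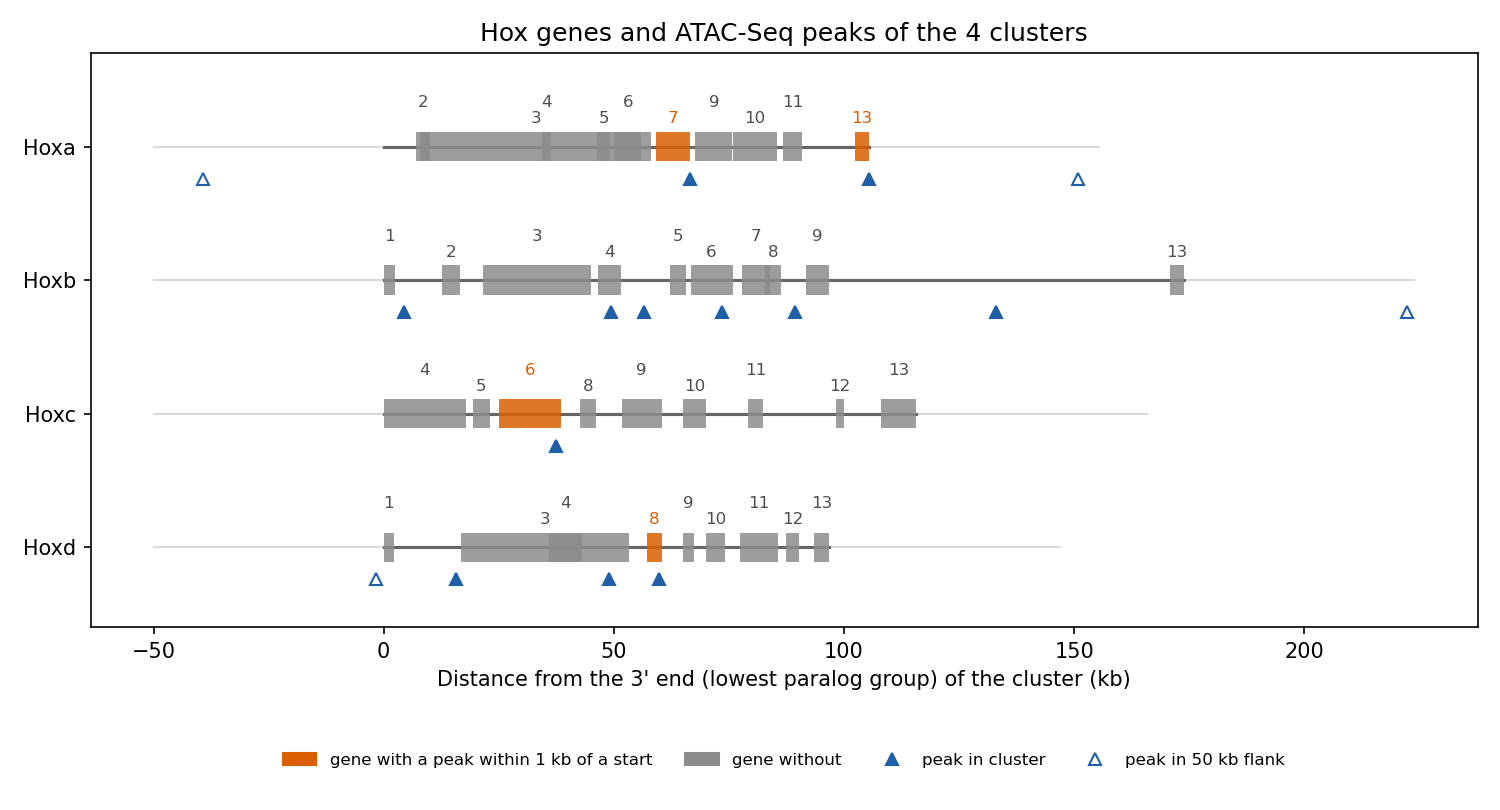
Map of the 4 Hox clusters, with the distance from the 3′ end of each cluster (the end with the lowest paralog group) in kb on the horizontal axis. Boxes are genes labelled by paralog group, darker where genes overlap, orange for the 4 open genes and grey for closed genes, and triangles are peak centres, filled for the 12 peaks within a cluster and hollow for the 4 peaks in the 50 kb flanks.

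The share of open genes was small among Hox genes, and since the list has no replicates it is set beside the background without a test. The 4 open genes made up 10.3% of the 39 (interval 4.06 to 23.6%), whereas 47.1% of all protein-coding genes were open. The shares lay farther apart among genes with a CpG-rich start, the class to which 25 of the 39 Hox genes belonged. Of these 25 genes 3 were open, or 12.0% (4.17 to 29.96%), against 75.7% of all coding genes with a CpG-rich start. Of the 14 Hox genes without a CpG-rich start 1 was open, or 7.14% (1.27 to 31.5%), against 19.6% of all genes of that class, so that this interval included the background.

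The distance chosen mattered for a few genes. The closed genes nearest to the limit were Hoxb4 at 1600 bp, Hoxb1 at 1672 bp and Hoxb6 at 1999 bp, whereas Hoxc6 at 439 bp was the open gene nearest to it. At 2 kb 7 Hox genes were open (17.9%), against 49.1% of all coding genes. With the start itself inside a peak 3 were open (7.69%), against 44.1% of all coding genes. In each case the Hox share stayed below the background.

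**Figure D2:**
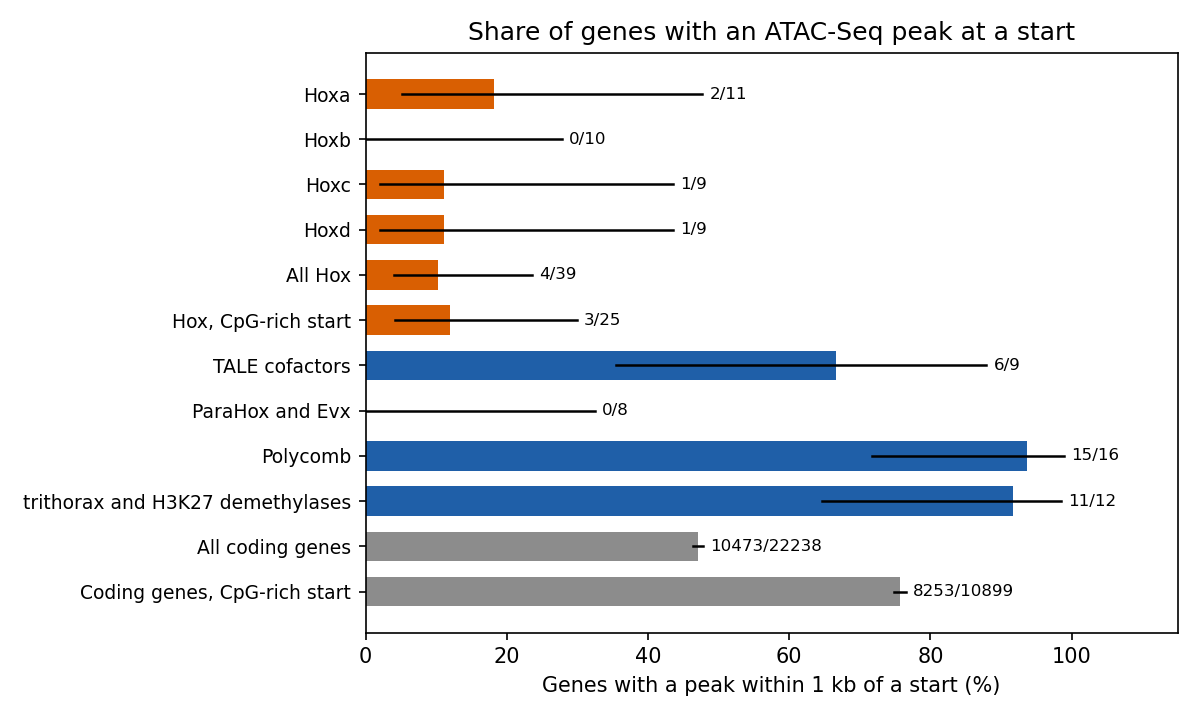
Share of genes with a peak within 1 kb of a start, in percent, with the number of open genes of all genes beside each bar and 95% Wilson intervals as lines. The 4 clusters and all Hox genes (orange) sit between 0 and 18.2%, the Polycomb and trithorax lists (blue) above 90%, and all coding genes (grey) at 47.1%.

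In Hoxa, which lies on the minus strand at chr6:52105366-52210874 and spans 106 kb, 2 of 11 genes were open and 7 were more than 10 kb from a peak. Across all coding genes 40.4% were that far from a peak. Across the 39 Hox genes 20 were, or 51.3% (36.2 to 66.1%), an interval that included the 40.4%. A gap of 105 kb without a peak held every start of Hoxa2 to Hoxa6. Within it, Hoxa2, which patterns the face and hindbrain, was 48.9 kb from the nearest peak, which lay beyond the 3′ end of the cluster.

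Hoxa3 to Hoxa6 were nearest to the Hoxa7 peak. Hoxa4 was 29.9 kb, Hoxa5, a lung gene, 17.1 kb and Hoxa6 10.3 kb from it. Hoxa3, which is required for the thymus to form, was 8.33 kb away by its outermost start, at position 52163338, which lies closer to Hoxa7 than the starts of Hoxa6 do. The genes share that peak, so these values are not separate measurements.

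On the 5′ side of Hoxa7 a gap of 38.7 kb held all starts of Hoxa9, Hoxa10 and Hoxa11. Hoxa9, the Hox gene best known from blood progenitors and acute leukemia, had its nearest start 4.19 kb from the Hoxa7 peak. Hoxa10, also active in blood progenitors, was 11.4 kb from the same peak. Hoxa11, a limb and kidney gene, was 14.4 kb from the Hoxa13 peak. All 3 had CpG-rich starts and all 3 were closed.

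In Hoxb, at chr11:96055630-96229570 on the plus strand, no gene was open although the cluster held 6 of the 12 cluster peaks. The interval of the share of open genes reached up to 27.8%. The peaks lay between the genes or inside them, and none was within 1 kb of a GENCODE start of a Hoxb gene. Hoxb1, a hindbrain gene, was 1.67 kb from a peak on its 5′ side, and Hoxb2 was 12.1 kb from the same peak.

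Hoxb4, a gene known for expanding blood stem cells, was the clearest case where the annotation decided the call. The GENCODE start, at position 96177998, was 1600 bp from the peak at chr11:96179598-96180649, whose centre lay in an exon of Hoxb4. The RefSeq start found in mm9 by exact match, at position 96179581, was 17 bp from the same peak. With that start Hoxb4 was open. The peak was 1052 bp wide, had a GC content of 62.9% and met the CpG criterion. Hoxb3 was 3.99 kb from it.

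The remaining Hoxb genes were 2.00 to 7.44 kb from a peak, apart from Hoxb13. Hoxb6 was 2.00 kb from a peak in its own intron, and Hoxb5 was 7.44 kb from the same peak. Hoxb8, a gene of blood progenitors and microglia, was 2.78 kb, Hoxb7 5.13 kb and Hoxb9 7.27 kb from the peak between Hoxb9 and Hoxb8. Hoxb13, a prostate and tail gene set apart from the rest of the cluster, was 40.6 kb from a peak. Hoxb6 to Hoxb9 each had a CpG-rich start, and no other Hoxb gene had one.

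In Hoxc, at chr15:102751534-102867274 on the plus strand, all 9 distances ran to the Hoxc6 peak. On the 3′ side Hoxc5 was 13.7 kb and Hoxc4 18.8 kb from it. On the 5′ side Hoxc8, which acts in spinal motor neurons, was 8.19 kb away, Hoxc9 21.8 kb and Hoxc10 32.01 kb. Hoxc11 followed at 44.4 kb, Hoxc12 at 62.1 kb and Hoxc13, a hair and nail gene, at 77.7 kb, the greatest distance of any Hox gene.

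The Hoxc6 peak separated long gaps. The gap on its 5′ side, which held all starts of Hoxc8 to Hoxc13, was 237 kb long and longer than 94.98% of all gaps between neighbouring peaks on a chromosome. The gap on its 3′ side, with Hoxc4 and Hoxc5, was 163 kb long and longer than 93.1% of all gaps. The median gap was 18.9 kb. Each gap counted once in this ranking, here and for Hoxd below, although a long gap holds more genes than a short one. The ranks thus do not say how rare such gaps are for genes. Over all coding genes the upper quartile of the distance to the nearest peak was 49.2 kb.

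In Hoxd, at chr2:74506367-74603200 on the plus strand, all 3 peaks lay at Hoxd8 or on its 3′ side. A gap of 125 kb, longer than 91.2% of all gaps, held all starts of Hoxd9 to Hoxd13, which act in the limb and the urogenital tract. The Hoxd8 peak was their nearest. Hoxd9 was 6.97 kb, Hoxd10 13.6 kb, Hoxd11 22.2 kb, Hoxd12 29.7 kb and Hoxd13, the digit gene, 36.3 kb from it. The genes on the 3′ side were closer to a peak but closed, with Hoxd3 at 3.61 kb, Hoxd1 at 3.63 kb and Hoxd4 at 5.49 kb.

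**Figure D3:**
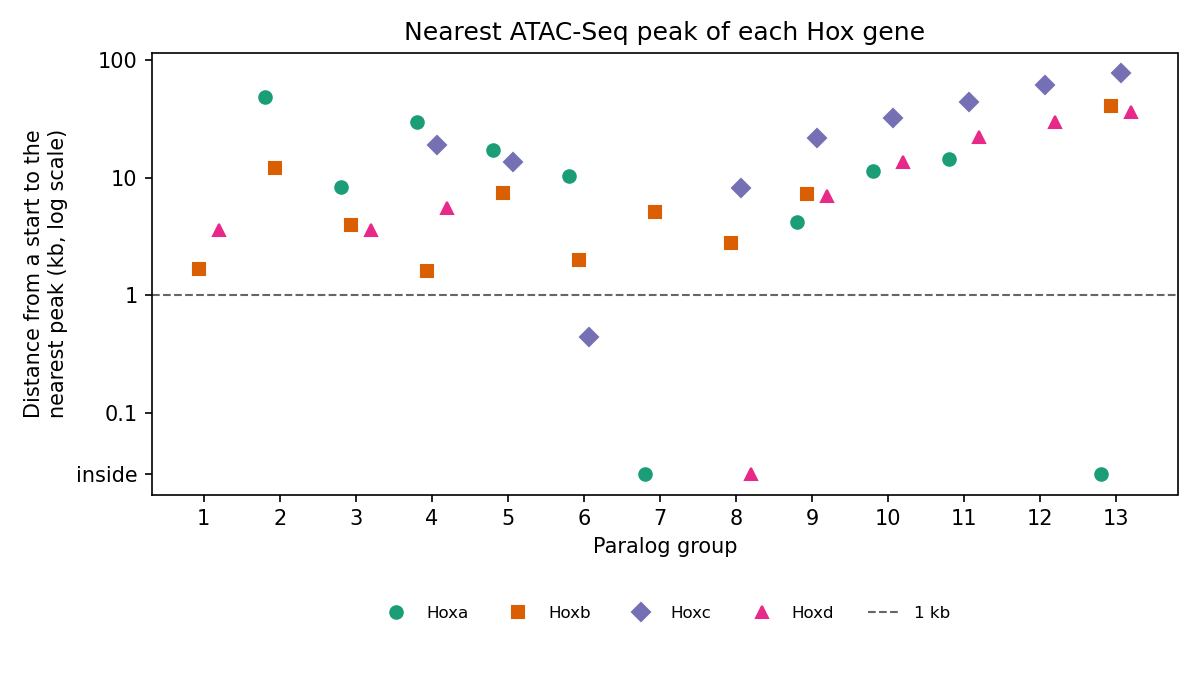
Distance from a start to the nearest peak for the Hox genes (kb, log scale), by paralog group, with a symbol for each cluster, "inside" for a start within a peak and a dashed line at 1 kb. Only Hoxa7, Hoxa13, Hoxc6 and Hoxd8 sit below the line, and the Hoxc and Hoxd genes of groups 9 to 13 sit between 6.97 and 77.7 kb.

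Along the order of the genes, open ones did not form an unbroken block. From group 1 to group 13, 0 of 15 genes of groups 1 to 5 were open, 3 of 8 genes of groups 6 to 8 and 1 of 16 genes of groups 9 to 13. These bounds were chosen after the values were seen, and no test was made. The bands also differed in CpG-rich starts, which 6 of the 15, 7 of the 8 and 12 of the 16 genes had. The counts rested on the starts and distance used. With RefSeq starts Hoxb4 was open and Hoxa7 closed, and at 2 kb Hoxb1, Hoxb4 and Hoxb6 were open as well. Each of Hoxc6, Hoxa7 and Hoxd8 was the sole open member of its group, so no paralog group had more than 1 open gene. The longest run of neighbouring closed Hox genes was 10, the whole of Hoxb, followed by 6 in Hoxa (on the 3′ side of Hoxa7), 6 in Hoxc (Hoxc8 to Hoxc13) and 5 in Hoxd (Hoxd9 to Hoxd13). With RefSeq starts the run of 10 lay in Hoxa instead, on the 3′ side of Hoxa13, and Hoxb4 broke the run in Hoxb.

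The median distance to the nearest peak was 10.3 kb over the 39 Hox genes and 2.55 kb over all coding genes. The order was reversed at the upper quartile, with 25.97 kb over the Hox genes and 49.2 kb over all coding genes. The Hox genes were thus farther from a peak at the median but not over the whole range of distances. For genes with a CpG-rich start the median was 0.00 kb, so that the typical start of that class lay inside a peak. By cluster the median was 11.4 kb in Hoxa, 4.56 kb in Hoxb, 21.8 kb in Hoxc and 6.97 kb in Hoxd. Hoxb thus had no open gene and the shortest median distance.

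The number of peaks by length was not low. The clusters held 2.44 peaks per 100 kb (1.26 to 4.26), and the genome 1.23, close to the lower end of that interval. The lengths used for the genome and the chromosomes included assembly gaps, which lowers their densities. The clusters are therefore not called denser than the genome. By cluster the density was 1.90 in Hoxa (0.230 to 6.85), 3.45 in Hoxb (1.27 to 7.51), 0.864 in Hoxc (0.0219 to 4.81) and 3.10 in Hoxd (0.639 to 9.05) per 100 kb. The densities of the chromosomes they lie on were 1.09, 2.23, 1.65 and 1.48, and each fell within the interval of its cluster. The intervals of the clusters overlapped one another. Without the long stretch to Hoxb13, the part from Hoxb1 to Hoxb9 held 5 peaks, or 5.17 per 100 kb (1.68 to 12.1). The flanks of 50 kb held 4 peaks, or 1 per 100 kb (0.272 to 2.56).

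Against the number of genes, the ratio of peaks was lower than over the genome. The clusters held 7.93 Hox genes per 100 kb, and the genome 0.837 coding genes per 100 kb. This made 0.308 peaks per Hox gene within the clusters, against 1.46 peaks per coding gene in the whole list. The whole list includes 21005 peaks farther than 1 kb from any annotated start. The ratio also falls as genes stand closer together, so it does not measure peaks at each gene. The value was 0.182 in Hoxa, 0.6 in Hoxb, 0.111 in Hoxc and 0.333 in Hoxd. Peaks covered 523 bp of Hoxa, 1282 bp of Hoxc, 2533 bp of Hoxd and 3772 bp of Hoxb.

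The sequence of the clusters was rich in CpG and mostly outside peaks. When the genome was divided into tiles of 500 bp, 13.9% of the 980 tiles in the clusters met the CpG criterion, against 0.723% of all tiles. Of the 136 CpG-rich tiles in the clusters 8 overlapped a peak, or 5.88% (3.01 to 11.2%), against 42.3% of all CpG-rich tiles. The share was 1 of 41 in Hoxa, 2 of 38 in Hoxb, 1 of 30 in Hoxc and 4 of 27 in Hoxd. Hoxa had the highest proportion of CpG-rich tiles, 19.5%, and the lowest proportion of these under a peak, 2.44% (0.432 to 12.6%). No base of the clusters was an assembly gap.

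**Figure D4:**
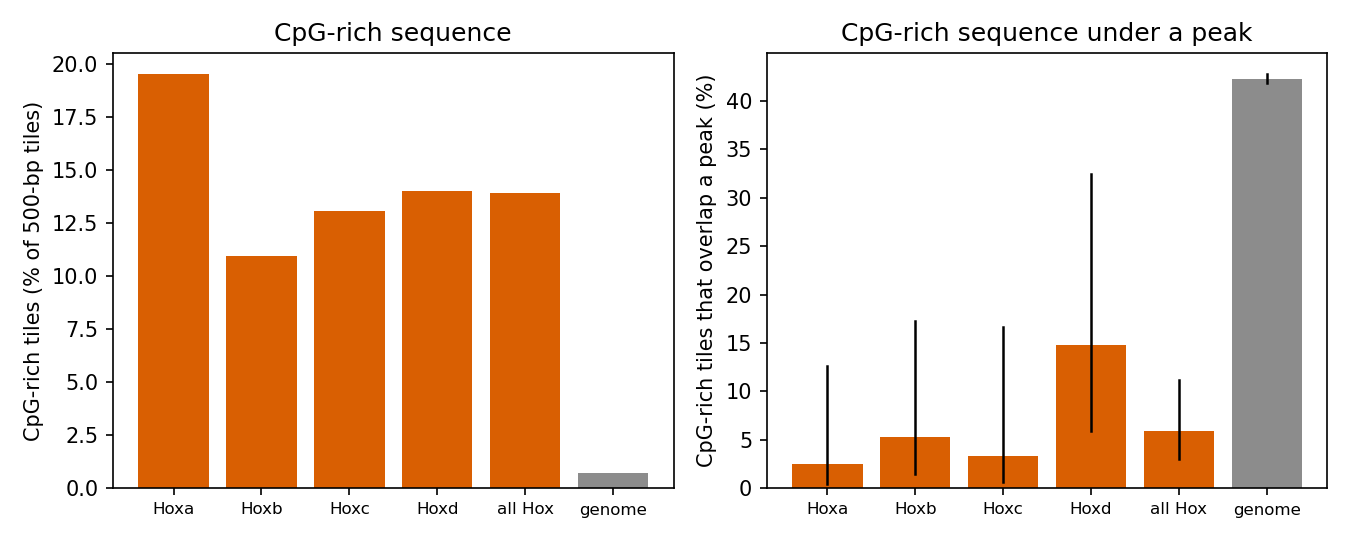
CpG-rich 500-bp tiles in the 4 Hox clusters, all clusters together and the genome, as percent of all tiles on the left and as percent of CpG-rich tiles that overlap a peak on the right, with 95% Wilson intervals as lines. CpG-rich tiles made up 13.9% of the clusters and 0.723% of the genome, and 5.88% and 42.3% of them overlapped a peak.

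Of the 12 peaks within the clusters, 6 lay within 1 kb of an annotated start of any gene, counting non-coding genes, and 6 did not. The median width was 599.5 bp (348 to 1052 bp by order statistics), against 551 bp over all peaks. The 6 peaks near a start had a median width of 651.5 bp, where all such peaks had 855 bp, and the 6 others had 541 bp, where all such peaks had 465 bp. By the CpG criterion over the whole peak, 5 of the 12 were CpG-rich, or 41.7% (19.3 to 68.0%), against 26.1% of all peaks. These were the peaks at Hoxa7, Hoxa13 and Hoxd8, the peak in the Hoxb4 exon and the peak in the Hoxb6 intron.

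All 4 peaks at open Hox genes held GGGCGG in their central 200 bp, and none of the 8 other cluster peaks did. Over all peaks the share was 23.4%, and over all peaks within 1 kb of a start it was 49.2%. The split held for this window only. Outside the central 200 bp, GGGCGG also occurred in the Hoxb4 exon peak (3 copies) and the peak between Hoxb5 and Hoxb4 (1 copy). The peak at chr2:74553764-74554547 held 2 copies, whereas the whole Hoxa7 peak held 1. The motif is a frequent part of CpG-rich promoters, and its match is a description of the sequence, not a bound site.

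TGGGAA, the core of the site recognised by RBPJ, the DNA-binding factor of the Notch pathway, was searched in the same way. It occurred in the central 200 bp of 4 of the 12 cluster peaks, or 33.3% (13.8 to 60.9%), against 15.3% of all peaks, which lies within that interval. None of these 4 peaks was at a Hox gene open by its GENCODE starts. They were the peaks between Hoxb9 and Hoxb8, between Hoxb5 and Hoxb4, in the Hoxb4 exon, and between Hoxd3 and Hoxd1. With its RefSeq start Hoxb4 was open, so the Hoxb4 exon peak then lay at an open gene. Outside the central 200 bp, TGGGAA also occurred in the peaks at the open genes Hoxa13 and Hoxc6 and in the Hoxb6 intron peak. Among peaks farther than 1 kb from any GENCODE start, 3 of 6 cluster peaks and 16.4% of all such peaks held TGGGAA in the central 200 bp. These 3 included the Hoxb4 exon peak, which lay 17 bp from the RefSeq start of Hoxb4. No RBPJ binding data were used here.

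These stretches are shown because they carry TGGGAA near the centre of a cluster peak, with the motif or its reverse complement in capitals. They are in mm9 on the strand given. For the Hoxb4 exon only a short stretch around the site is shown. The stretch between Hoxb5 and Hoxb4 carried the motif in 2 copies on the same strand.
Hoxb9 to Hoxb8, chr11:96140174-96140373, plus strand: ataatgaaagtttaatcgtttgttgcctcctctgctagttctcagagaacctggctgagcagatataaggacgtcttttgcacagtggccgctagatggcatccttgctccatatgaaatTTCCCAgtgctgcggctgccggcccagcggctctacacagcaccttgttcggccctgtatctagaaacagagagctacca
Hoxb5 to Hoxb4, chr11:96172862-96173061, plus strand: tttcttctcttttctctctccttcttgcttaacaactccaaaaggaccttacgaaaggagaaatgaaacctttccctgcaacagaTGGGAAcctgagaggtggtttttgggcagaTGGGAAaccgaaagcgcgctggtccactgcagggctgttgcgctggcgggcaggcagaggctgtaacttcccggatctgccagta
Hoxb4, chr11:96180061-96180086, minus strand: cattaatttcTGGGAAttgcccacaa
Hoxd3 to Hoxd1, chr2:74587412-74587611, plus strand: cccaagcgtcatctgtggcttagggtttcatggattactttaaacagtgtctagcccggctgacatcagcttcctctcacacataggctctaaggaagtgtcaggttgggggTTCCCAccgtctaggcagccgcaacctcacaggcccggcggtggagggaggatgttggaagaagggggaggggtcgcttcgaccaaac

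The other motifs were in 0 to 3 of the 12 central windows. CAGCTG, an E-box bound by basic helix-loop-helix factors of T-cell progenitors, was found in 3 of 12 cluster peaks, against 21.3% of all peaks. With the 4 flank peaks added it was in 6 of 16, since 3 of the 4 flank peaks held it. TGTGGT, the RUNX core, was in 1 of 12 cluster peaks, or 8.33% (1.49 to 35.4%). The 19.9% of all peaks lay within that interval. TGATNNAT, a site for PBX with HOX proteins, TGACAG, a MEIS site, and CCANNAGGG, the core of the CTCF site, were in 0 of the 12 central windows, where all peaks had 3.20%, 15.6% and 7.10%. A count of 0 in 12 allowed a share of up to 24.2% by the Wilson interval. Outside the central 200 bp, TGATNNAT, TGACAG and CCANNAGGG each occurred in at least 1 cluster peak.

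The flank peak nearest to a cluster lay 3′ of Hoxd1 at chr2:74604665-74605044. It is shown because it combined CAGCTG, in 2 copies, with TGTGGT, all in capitals, and it had the lowest GC content of the 16 peaks, 41.1%.
Beyond Hoxd1, chr2:74604754-74604953, plus strand: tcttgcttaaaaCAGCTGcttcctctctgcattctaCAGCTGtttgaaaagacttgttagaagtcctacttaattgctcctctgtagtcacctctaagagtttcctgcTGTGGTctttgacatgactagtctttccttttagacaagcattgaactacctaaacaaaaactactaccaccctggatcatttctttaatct

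Most long non-coding genes of the clusters were closed, as were most long non-coding genes over the genome. Of 17 long non-coding genes that overlapped a cluster 2 were open, or 11.8%, against 26.9% of all long non-coding genes. With 17 genes, this difference was not tested and is not read as a trait of the clusters. Both were in Hoxd. The lincRNA gene 1700109F18Rik, which is read on the minus strand from the Hoxd4 side toward Hoxd8, had a start inside the peak at chr2:74553764-74554547. The gene 6720416L17Rik, antisense to the Hoxd genes between Hoxd3 and Hoxd1, had a start 877 bp from the peak at chr2:74587339-74587686.

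The clusters also hold microRNA genes that target Hox messages, and all 6 of those annotated were closed. The share over all microRNA genes was not computed, so this count has no background beside it. The start used was an end of the annotated hairpin, not the start of a longer primary transcript. Mir10a, which lies in the annotated Hoxb4 gene, was nearest, with its hairpin 1.01 kb from the Hoxb4 peak and its start 1.12 kb from it. Mir196b, at Hoxa9, was 8.12 kb, Mir10b, at Hoxd4, 9.58 kb, Mir196a-1, 5′ of Hoxb9, 13.5 kb, Mir615, in Hoxc, 14.8 kb and Mir196a-2, between Hoxc10 and Hoxc9, 25.4 kb from a peak. Their mature sequences, from RefSeq on GRCm38.p6, are shown with the seed, bases 2 to 8, in capitals, because paralogous loci share it. The miR-10 forms shared the seed ACCCUGU and the miR-196 forms AGGUAGU.
miR-10a-5p: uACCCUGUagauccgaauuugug
miR-10b-5p: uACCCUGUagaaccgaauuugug
miR-196a-5p: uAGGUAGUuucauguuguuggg
miR-196b-5p: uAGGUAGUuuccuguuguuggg

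None of the 6 other coding genes that overlapped a cluster or its flanks was open. They were 5730596B20Rik in Hoxa, 44.2 kb from a peak, Ttll6 beyond Hoxb13, 11.5 kb, Gm53 between Hoxb13 and Hoxb9, 15.7 kb, Gm17649 at the 5′ end of Hoxc, 77.99 kb, Evx2 beyond Hoxd13, 44.8 kb, and Gm14396 between Hoxd10 and Hoxd9, 9.05 kb. Evx2 is a homeobox gene that shares limb control with the posterior Hoxd genes. Over all coding genes 47.1% were open, and over those with a CpG-rich start 75.7%. Of the 6 genes, 5730596B20Rik, Gm53, Gm17649 and Evx2 had such a start. With so few genes, the difference was not tested.

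Of the TALE homeobox genes, whose products bind DNA together with HOX proteins, 6 of 9 were open, or 66.7% (35.4 to 87.9%). This interval included both the 47.1% of all coding genes and the 75.7% of those with a CpG-rich start, the class of 7 of the 9. All 4 Pbx genes, Meis3 and Pknox1 had a start inside a peak. Meis1, a partner of Hoxa9 in leukemia, was 804 kb, Meis2 62.9 kb and Pknox2 29.8 kb from a peak, all 3 with CpG-rich starts.

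The related homeobox genes outside the clusters, the ParaHox genes with Evx1 and Evx2, were closed. Of these 8 genes 0 were open (up to 32.4%), although 6 had a CpG-rich start, and their distances ran from 7.19 kb at Evx1 to 156 kb at Cdx4.

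The complexes that act on Hox chromatin were looked up in the same way. Of 16 Polycomb genes 15 were open, or 93.8% (71.7 to 98.9%). These included Ezh2, Eed and Suz12, the core of the complex that methylates H3K27, and Rnf2 and Bmi1 of the complex that ubiquitinates H2A. Pcgf2, at 1.91 kb, was the exception. Of 12 trithorax and H3K27 demethylase genes 11 were open, or 91.7% (64.6 to 98.5%), among them Mll1, Men1, Dot1l and Kdm6a, and Kdm6b, at 1.61 kb, was the exception. All 16 Polycomb genes and 11 of the 12 others had a CpG-rich start, and the background of 75.7% for that class lay within both intervals.

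RefSeq starts could be placed in mm9 for 22 of the 39 Hox genes, and 3 of these were open, Hoxa13, Hoxb4 and Hoxd8. This was 13.6% (4.75 to 33.3%), against 49.7% of 13773 coding genes with a RefSeq start so placed. Where RefSeq starts replaced the GENCODE starts of those 22 genes, 4 of 39 genes were again open, with Hoxb4 in place of Hoxa7.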

How the data were processed

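A commercial ATAC-Seq kit was used for 6 libraries of Beko cells, 3 with DMSO and 3 with GSI, grouped by the labels. As the methods of the study state, reads were trimmed, aligned to mm9 with HISAT2 (2.2.1 in the submitters' processing notes, which also name Picard, deepTools and MACS2) keeping 1 alignment each, and freed of duplicates. Peaks were called with MACS2 without input, and those conserved in 3 of 6 libraries outside blacklisted regions were kept. The deposited values are peak coordinates in bp, and no other column of the list holds a measurement. A peak of 1 treatment alone can be in the list, which does not record it. A shift of reads for the transposase offset is not given in the sources used here.

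Starts, counted from 0 in the file, are printed from 1. Genes and sequence came from GENCODE vM1 and NCBIM37, the same build as mm9. Genes with the same symbol on a chromosome were merged, which joined 2 entries of Hoxa3. A cluster ran from the lowest to the highest base of its Hox genes, and 1 shared bp counted as overlap. Motifs were searched on both strands, CAGCTG being its own reverse complement. RefSeq promoters of 300 bases (250 before the start), given on GRCm38.p6, were searched in mm9, and 16894 of 18187 were found exactly and once within the range searched. Motif, CpG and distance functions were tested on simulated data. Python 3.11.15, numpy 2.4.6, scipy 1.17.1 and matplotlib 3.10.9 were used.

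No test between groups was possible. The members are named, apart from 1 that is counted but not reported here, with the other coding genes of the clusters and flanks, the non-coding genes that were open, and the microRNAs. Mir615, the lists of T-lineage and other-lineage genes, the tiles, the gaps between peaks, the runs of closed genes and the nearest neighbours beyond the flanks were added after the data were seen. The members and lists were chosen with earlier results of these data known.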

Additional observations from a re-analysis of the deposited data

How the results depend on the processing

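Of 63 alternatives run over 16 results, 53 left the value within 1.5 times the count, or within its counting interval. The call of Hoxc6 depended on the distance, as 0 Hoxc genes were open when the start had to lie inside a peak. At 2 kb, 7 Hox genes and 3 Hoxb genes (Hoxb1, Hoxb4 and Hoxb6) were open, and the longest closed run fell from 10 to 6 genes. Hoxa7 rested on a narrow peak and on the annotation, since 1 Hoxa gene was open with peaks of at least 500 bp, and also with RefSeq starts, an alternative added after the data were seen, under which 1 Hoxb gene, Hoxb4, was open. With RefSeq starts the longest closed run was still 10 genes, but it lay in Hoxa and not in Hoxb. With peaks of at least 500 bp, 7 peaks remained within the clusters and 2 in the flanks. With CpG thresholds of 0.75 and 55% GC, 16.7% of the cluster peaks were CpG-rich. TGGGAA was in 7 of 12 whole peaks, against 42.5% of all whole peaks. With tiles of 1000 bp, also added later, 5 of 62 CpG-rich tiles of the clusters overlapped a peak, or 8.06%, against 55.5% of all.

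No paired analysis was possible because peak coordinates merged over the libraries carry no value for any of them, so the replicate numbers in the labels could not be used, and no replicate could be left out. With 12 peaks in the clusters, the density intervals of the clusters overlapped, and motifs were not compared between clusters. Read depth was not used here.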

Other observations

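Of the 3 coding genes nearest to each cluster on either side beyond the 50 kb flanks, 24 genes in all and 52.6 to 910 kb from their cluster, 16 were open, or 66.7%. Over all coding genes the share was 47.1%, and over those with a CpG-rich start 75.7%. Beyond the flanks, the nearest coding genes on both sides of Hoxd were open, with a start inside a peak at Lnp and Mtx2. They lay 88.9 and 60.7 kb from the cluster. Evx2, closer to Hoxd at 8.45 kb and within the flank, was closed. On the 3′ side of Hoxb, Skap1, an adaptor of T-cell receptor signaling, had a start inside a peak, whereas its paralog Skap2, on the 3′ side of Hoxa, was 103 kb from the nearest peak. The neighbours are themselves paralogs in part. Among the Atp5g genes, which encode a subunit of the mitochondrial ATP synthase, Atp5g1, 119 kb from Hoxb, and Atp5g3, 757 kb from Hoxd, were open and Atp5g2, 250 kb from Hoxc, was 5.17 kb from a peak. Among genes of heterochromatin protein, Cbx1, 421 kb from Hoxb, and Cbx5, 155 kb from Hoxc, were open, and Cbx3, 672 kb from Hoxa, was 27.5 kb from a peak.

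Closed genes with a CpG-rich start stood next to each other in runs in all 4 clusters. Counting only coding genes with a CpG-rich start along each chromosome, the list gave 1705 runs of closed genes. A run of 7 at Hoxa, from Skap2 to Hoxa3 and with 5 Hox genes, was exceeded in length by 5 runs. A run of 6 at Hoxc, with 5 Hox genes from Hoxc13 to Hoxc8, was exceeded by 8 runs. Runs of 5 at Hoxb, with Gm53 and Hoxb6 to Hoxb9, and of 4 at Hoxd, with Evx2, Hoxd13, Hoxd11 and Hoxd9, were exceeded by 15 and 27 runs.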
